A study of Mus musculus with 10 samples.

Results

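The genes described here are 9 transcription factor genes that mark intermediate and late phases of neuron production in the spinal cord, namely Zfhx2, Zfhx3, Zfhx4, Nfia, Nfib, Nfic, Nfix, Neurod2 and Neurod6. They were listed by their role, as temporal-code genes that follow the early Onecut phase, by a rule with no threshold on a measured value, and they are 9 of the 48938 genes with a symbol in the counts. RNA was sequenced from YFP-positive cells sorted by FACS from dissociated mouse spinal cord at embryonic day e10.5. All samples carried the driver Olig2-Cre+/-, which recombines floxed alleles in the lineage of Olig2-positive cells, and the reporter Rosa26R-YFP+/-. The 5 control samples were Oc1+/Flox and Oc2+/Flox, so that a wild-type allele of each gene remained beside the recombined one, and the 5 conditional double knockout (cdKO) samples were Oc1-/Flox and Oc2-/Flox. Titles gave e10.5 for every sample, whereas the descriptions repeat that age for the first control sample and change its last digits for the rest. The labels do not say whether each sample was 1 embryo, so p-values measure only the spread between these samples.

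The Onecut (OC) factors Oc1, Oc2 and Oc3 (Onecut1, Onecut2 and Onecut3) are present in many of the first neurons born in each domain of the spinal cord. Neurons born later in the same domains turn on other factors in turn, the zinc finger homeodomain proteins of the Zfhx family in an intermediate phase, and nuclear factor I (Nfi) proteins with the basic helix-loop-helix proteins Neurod2 and Neurod6 in late phases. Nfia and Nfib also take part in the switch of progenitors from making neurons to making glia. Motor neurons (MNs), the neurons made by the Olig2 domain, are among the earliest born, and the comparison asked whether loss of OC factors shifted the later genes in this lineage.

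Zfhx2 was the member whose promoter held the letters searched for OC factors, and that promoter is shown for this reason. RefSeq (GRCm38.p6, the build of the files) listed 10 promoter windows for 7 members, each running from 250 bases before to 50 bases after a start site. Both strands were searched for ATTGAT and ATCGAT, core letters of sites bound by OC factors. The Zfhx2 window, chr14:55091999-55092298 on the minus strand, held the letters at -235 and -179 from the start site, marked in capitals, the first of them on the opposite strand:
Zfhx2 promoter: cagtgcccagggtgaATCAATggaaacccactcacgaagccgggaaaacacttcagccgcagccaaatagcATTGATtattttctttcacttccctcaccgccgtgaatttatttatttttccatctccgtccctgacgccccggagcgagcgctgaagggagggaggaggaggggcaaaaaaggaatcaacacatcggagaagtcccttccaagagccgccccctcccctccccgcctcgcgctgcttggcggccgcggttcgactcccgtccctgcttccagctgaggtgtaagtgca
Of all 32851 promoter windows of this length, 7.54% held ATTGAT, 0.925% held ATCGAT and 8.40% held either. The 3 exon bins that reach into the 300 bases after this start site carried 155 counts over the 10 samples, 10.3% of the Zfhx2 counts. Together they run from 55089572 to 55092324, 2753 bases that include the whole window. These counts therefore cannot be placed at the start site. The windows of Zfhx3, Nfia, Nfic, Nfix, Neurod2 and Neurod6 did not hold these letters, and Zfhx4 and Nfib had no entry. Bins reaching into the 300 bases after these start sites carried 35 counts for Zfhx3, 2 for Neurod2, and 0 for Nfic and Neurod6. Nfix had 1 count after 1 of its start sites and no bin after the others. Nfia had no bin there, its start site being at 97581943 and its first counted bin at 97772734. Whether RNA of these genes began at these sites was not tested.

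The files held whole-number counts of reads on exon bins, which are non-overlapping pieces of exons, and totals ran from 63932395 to 107709534 in control and from 72315782 to 84249157 in cdKO samples. Values are given as counts and as CPM, the counts scaled to a common size of library after edgeR's TMM scaling, and 3 counts, taken as the floor of detection, corresponded to 0.0288 to 0.0591 CPM. One library stood apart. cdKO replicate 5 had counts on 198569 bins against 243970 to 271591 in the others, a TMM factor of 0.717 against 0.947 to 1.17, and a median shift of coverage towards the 3′ ends of genes of 0.0834 of the gene length against -0.0165 to 0.0013. Comparisons and levels of the members that rest on it are given with and without it. Of 10 MN markers, 9 were detected in all 10 samples and Slc5a7 was at 1 count in control replicate 5, and the progenitor marker Sox2 (25.3 to 58.5 CPM) was also present, so the sorted cells held progenitors besides MNs. The summed level of the 10 MN markers was lowest in replicate 5 of each group. It was 611 CPM in control replicate 5 against 886 to 1110 CPM in the other control samples. In cdKO replicate 5 it was 606 CPM against 767 to 1115 CPM in the other cdKO samples. All 4 markers of V3 interneurons passed the filter, with summed levels of 11.5 to 21.2 CPM in control and 10.4 to 21.03 CPM in cdKO samples, and the study also saw YFP in these neurons. Fewer cells of a type and less RNA per cell cannot be told apart in these samples.

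The targeted genes were compared first. The exon block of Onecut1 at chr9:74861921-74863401 averaged 1.63 ± 0.915 CPM over the control samples (SD, n = 5) and 0.0476 ± 0.0878 CPM over the cdKO samples (SD, n = 5), without overlap (exact two-sided permutation test, p = 0.00794, the smallest p that 5 against 5 samples allow). That block held 20.6% of the Onecut1 counts. The block at the 3′ end held 73.7%, with 3.96 ± 1.89 CPM in control and 2.41 ± 1.16 CPM in cdKO samples (exact two-sided permutation p = 0.198). All Onecut1 counts lay on bins that the gene Gm20649 also covers. Onecut3 had 68, 39, 29, 39 and 36 counts in control replicates 1 to 5 and 3, 1, 1, 0 and 0 counts in cdKO replicates 1 to 5. Its edgeR test gave an unadjusted p of 1.24e-05 and an adjusted p of 0.111. Onecut2 averaged 4.80 ± 3.34 CPM over the control samples (SD, n = 5) and 6.91 ± 7.14 CPM over the cdKO samples (SD, n = 5), and the study states that its null allele still gives truncated transcripts, so this gene does not check the labels.

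No member differed between control and cdKO samples beyond the spread between replicates. Of the 9 members, 6 passed the filter on low counts (Zfhx2, Zfhx3, Zfhx4, Nfia, Nfib and Nfic), and Nfix, Neurod2 and Neurod6 did not. In edgeR's quasi-likelihood test none of the 6 had an adjusted p under 0.05, and neither did any of the 17840 genes tested (0%). By other tools on the same samples, DESeq2's Wald test called 20 genes, limma-voom 3 and limma-voom with sample quality weights 13, no member among them. At an unadjusted p under 0.05 edgeR had 890 genes (4.99%), 745 higher in cdKO (4.18%) and 145 lower (0.813%), and 0 of the 6 members. The control and cdKO ranges overlapped for all 9 members, against 73 genes tested whose ranges did not (0.409%). The common biological coefficient of variation was 0.54, and the plot of each gene's level by sample shows the overlap.

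**Figure D1:**
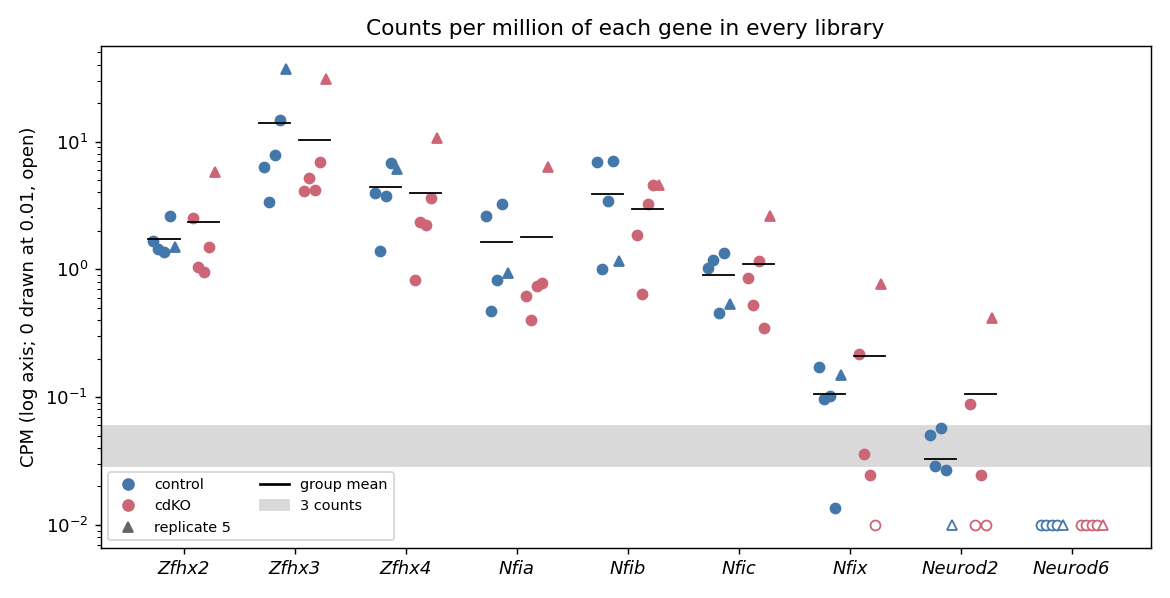
CPM (log axis) of the 9 genes in each of the 5 control (blue) and 5 cdKO (red) samples, with triangles for replicate 5, black lines for group means, open symbols for 0 and a grey band for the CPM of 3 counts. The groups overlap for every gene, and cdKO replicate 5 is the highest cdKO sample for Zfhx2, Zfhx3, Zfhx4, Nfia, Nfic, Nfix and Neurod2.

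Zfhx3 (also known as Atbf1), a large zinc finger homeodomain protein of differentiating neurons, is on the plus strand of chromosome 8, where its counted bins run from 108703100 to 108961630. It had 628, 349, 696, 1092 and 2516 counts in control replicates 1 to 5, or 6.30, 3.35, 7.91, 14.8 and 37.2 CPM. In cdKO replicates 1 to 5 it had 326, 434, 341, 578 and 1564 counts, or 4.14, 5.16, 4.19, 6.89 and 30.8 CPM. Replicate 5 was far above the rest in both groups, and all 5 cdKO samples lay within the control range. The control mean was 13.9 ± 13.7 CPM (SD, n = 5) and the cdKO mean 10.2 ± 11.5 CPM (SD, n = 5), differing by less than the replicate spread (log2 fold change -0.44, standard error 0.70, edgeR unadjusted p = 0.536, adjusted p = 0.996). The exact two-sided permutation test of log2(CPM + 0.5) gave p = 0.595. The value depended on which replicate 5 was kept. Without cdKO replicate 5 the log2 fold change of Zfhx3 was -1.42 (standard error 0.59, unadjusted p = 0.0342, adjusted p = 0.9999), and without control replicate 5 it was 0.33 (standard error 0.65, unadjusted p = 0.616).

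Zfhx4, a paralogue of Zfhx3 with several homeodomains, is on the plus strand of chromosome 3 from 5218526 to 5415857. Its control counts were 397, 145, 330, 500 and 411, or 3.98, 1.39, 3.75, 6.78 and 6.07 CPM. Its cdKO counts were 65, 199, 181, 303 and 544, or 0.825, 2.37, 2.22, 3.61 and 10.7 CPM. cdKO replicate 5 was the highest of the 10 samples and cdKO replicate 1 the lowest, so the control range lay inside the cdKO range. The control mean was 4.40 ± 2.13 CPM (SD, n = 5) and the cdKO mean 3.95 ± 3.91 CPM (SD, n = 5), differing by less than the replicate spread (log2 fold change -0.16, standard error 0.60, edgeR unadjusted p = 0.799, adjusted p = 0.998). The exact two-sided permutation test gave p = 0.540. Without cdKO replicate 5 the log2 fold change of Zfhx4 was -0.95 (standard error 0.49, unadjusted p = 0.0775).

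Zfhx2, the smallest contributor of the family here, is on the minus strand of chromosome 14 from 55060262 to 55092324. Its control counts were 167, 150, 120, 192 and 101, or 1.68, 1.44, 1.36, 2.60 and 1.49 CPM. Its cdKO counts were 198, 88, 77, 125 and 293, or 2.51, 1.05, 0.946, 1.49 and 5.77 CPM. The lowest and the highest value were both in cdKO samples. The control mean was 1.71 ± 0.510 CPM (SD, n = 5) and the cdKO mean 2.35 ± 2.01 CPM (SD, n = 5), differing by less than the replicate spread (log2 fold change 0.45, standard error 0.50, edgeR unadjusted p = 0.385, adjusted p = 0.996, exact two-sided permutation p = 0.738). It was -0.19 without cdKO replicate 5 (standard error 0.37). On bins that other annotated genes also cover (the antisense gene Zfhx2os and Gm20687) lay 45.4% of the Zfhx2 counts, and since strand was not used these reads cannot be told apart.

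Nfia, a nuclear factor I protein that progenitors turn on at the onset of glia production and that late-born neurons also express, is on the plus strand of chromosome 4 from 97772734 to 98118874. Its control counts were 261, 49, 73, 241 and 63, or 2.62, 0.470, 0.830, 3.27 and 0.931 CPM. Its cdKO counts were 49, 34, 60, 66 and 322, or 0.622, 0.404, 0.737, 0.787 and 6.34 CPM. Control replicates 1 and 4 stood above the other controls, 4 cdKO samples were at 0.787 CPM or less, and cdKO replicate 5 had the highest value of all. The control mean was 1.62 ± 1.24 CPM (SD, n = 5) and the cdKO mean 1.78 ± 2.55 CPM (SD, n = 5), differing by less than the replicate spread (log2 fold change 0.12, standard error 0.78, edgeR unadjusted p = 0.877, adjusted p = 0.998). The exact two-sided permutation test gave p = 0.794. Without cdKO replicate 5 the log2 fold change of Nfia was -1.35 (standard error 0.57, unadjusted p = 0.0361, adjusted p = 0.9999).

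Nfib, the family member that acts with Nfia in gliogenesis and in late-born neurons, is on the minus strand of chromosome 4 from 82290173 to 82705750. Its control counts were 686, 105, 304, 516 and 78, or 6.88, 1.01, 3.46, 7.0 and 1.15 CPM. Its cdKO counts were 145, 54, 262, 385 and 232, or 1.84, 0.642, 3.22, 4.59 and 4.57 CPM. Control replicates 1 and 4 were the highest of the 10 samples, as cdKO replicates 4 and 5 were within their group. The control mean was 3.90 ± 2.94 CPM (SD, n = 5) and the cdKO mean 2.97 ± 1.73 CPM (SD, n = 5), differing by less than the replicate spread (log2 fold change -0.39, standard error 0.63, edgeR unadjusted p = 0.542, adjusted p = 0.996, exact two-sided permutation p = 0.714). Nfib was the tested member whose log2 fold change stayed negative in all 24 alternatives, between -0.85 and -0.02, past no threshold.

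Nfic, the nuclear factor I gene known for tooth root formation, is on the minus strand of chromosome 10 from 81396186 to 81455635. Its control counts were 102, 123, 40, 99 and 36, or 1.02, 1.18, 0.455, 1.34 and 0.532 CPM. Its cdKO counts were 67, 44, 95, 29 and 133, or 0.851, 0.523, 1.17, 0.346 and 2.62 CPM. The cdKO range enclosed the control range, with a log2 fold change of 0.27 (standard error 0.56, edgeR unadjusted p = 0.635, adjusted p = 0.996, exact two-sided permutation p = 0.889). It was -0.33 without cdKO replicate 5 (standard error 0.47). Bins shared with Gm16104 held 19.0% of the Nfic counts.

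Nfix, the nuclear factor I gene linked to late fetal muscle and neural stem cell programmes, is on the minus strand of chromosome 8 from 84699876 to 84800344. It had 17, 10, 9, 1 and 10 counts in control replicates 1 to 5 and 17, 3, 2, 0 and 39 counts in cdKO replicates 1 to 5. The groups overlapped (exact two-sided permutation p = 0.794), and 4 of the 10 samples were at or under 3 counts. cdKO replicate 5 held 39 of the 108 counts, and without it the exact two-sided permutation p for Nfix was 0.444. Bins shared with Lyl1 and G430095P16Rik held 38.9% of the Nfix counts.

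Neurod2 and Neurod6, basic helix-loop-helix factors of late-born excitatory neurons, were close to or at the limit of detection. Neurod2, on the minus strand of chromosome 11 from 98325415 to 98329648, had 5, 3, 5, 2 and 0 counts in control and 7, 0, 2, 0 and 21 counts in cdKO samples (exact two-sided permutation p = 0.571). Of the 10 samples, 6 were at or under 3 counts, and cdKO replicate 5 alone held 21 of the 45 counts (exact two-sided permutation p = 0.897 without it). Neurod6, on the minus strand of chromosome 6 from 55677822 to 55681263, had 0 counts in all 10 samples, which allows a level of up to 0.0288 to 0.0591 CPM per library. At this depth a difference in Neurod6 was not detectable. Floors cover counting error only.

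The loss of 1 library changed the picture of the 6 tested members, as the plot of log2 fold changes in 4 fits shows. Without cdKO replicate 5 all 6 had a negative log2 fold change, and 2 of 6 (Zfhx3 and Nfia) were lower in cdKO samples at an unadjusted p under 0.05, against 1.76% of all genes tested in that fit. Without both libraries of replicate 5, an alternative chosen after seeing the data, 1 of 6 was (Nfia, log2 fold change -1.50, standard error 0.58, unadjusted p = 0.0253), against 1.52% of all genes. In that fit the log2 fold change of Zfhx3 was -0.68 (standard error 0.41, unadjusted p = 0.128). None of these passed the adjusted threshold, the lowest adjusted p of a member over all alternatives being 0.603.

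**Figure D2:**
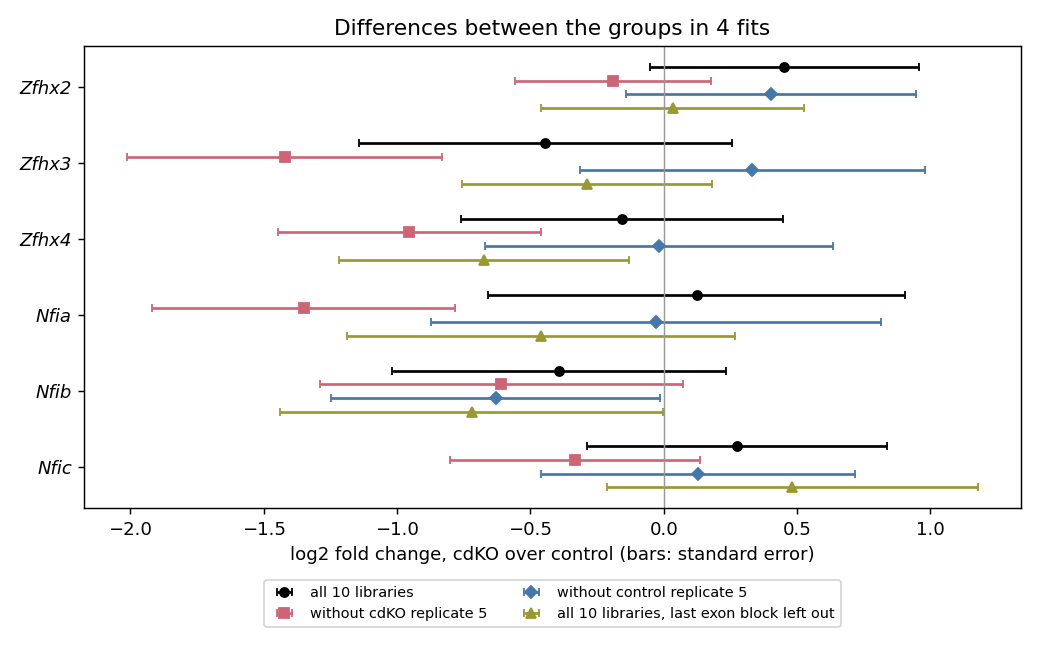
log2 fold change (cdKO over control, edgeR) with its standard error for the 6 tested genes, in 4 fits: all 10 libraries (black), without cdKO replicate 5 (red), without control replicate 5 (blue) and all 10 libraries with each gene's last exon block left out (olive). Zfhx3 is at -1.42 without cdKO replicate 5 and at 0.33 without control replicate 5, and Nfib is negative in every fit.

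Coverage along the members differed in cdKO replicate 5. Touching exon bins were joined into exon blocks, and the last block of a gene is the one at its 3′ end. Of Nfib counts, 87.9% lay on the last block in cdKO replicate 5, where the other 9 libraries had 13.1% to 53.8%. The Nfib block 4 from 82495984 to 82498769, which held 18.5% to 37.1% of the gene's counts elsewhere, had 0 counts there. Of Zfhx4 counts, 80.9% lay on the last block against 17.4% to 57.9%, of Nfia counts 77.6% against 29.4% to 57.1%, and of Zfhx2 counts 70.6% against 14.1% to 48.1%. Of Zfhx3 counts, 93.1% lay on the last block in cdKO replicate 5 and 95.9% in control replicate 5, against 67.9% to 82.8% in the other samples. Nfic did not follow this, with 39.1% in cdKO replicate 5 against 29.5% to 65.7%. In control replicate 5 the share was also above that of the other controls for Zfhx2 (42.6%), Zfhx3, Zfhx4 (57.9%), Nfia (50.8%) and Nfib (53.8%).

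**Figure D3:**
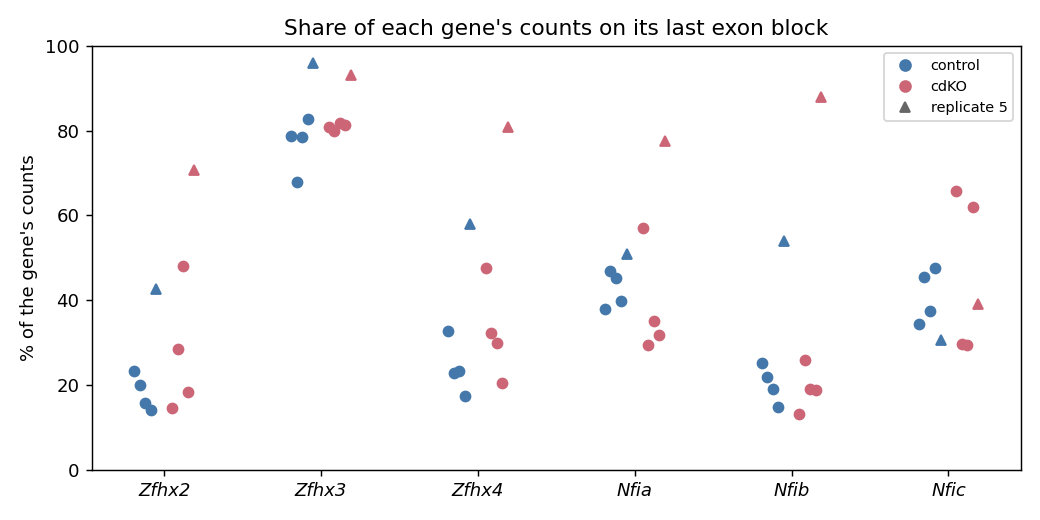
Percent of each gene's counts on its last exon block, for 5 control (blue) and 5 cdKO (red) samples, with triangles for replicate 5. cdKO replicate 5 is the highest sample for Zfhx2, Zfhx4, Nfia and Nfib, reaching 87.9% for Nfib, and control replicate 5 is the highest for Zfhx3.

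With the last blocks left out for all genes, an alternative chosen after seeing the data, the log2 fold changes moved to -0.67 for Zfhx4 (standard error 0.54), -0.46 for Nfia (0.73), -0.72 for Nfib (0.72), -0.29 for Zfhx3 (0.47), 0.03 for Zfhx2 (0.49) and 0.48 for Nfic (0.70). None had an unadjusted p under 0.05. Single parts of the members were compared as well. The coding bins of Zfhx4 had a control mean of 2.91 ± 1.57 CPM (SD, n = 5) and a cdKO mean of 1.70 ± 0.878 CPM (SD, n = 5) (exact two-sided permutation p = 0.230), while its last block had 1.44 ± 1.22 and 2.24 ± 3.59 CPM (exact two-sided permutation p = 0.968). On that last block cdKO replicate 5 had 440 counts, and cdKO replicates 1 to 4 had 31, 64, 54 and 62. Control replicates 1 to 5 had 130, 33, 77, 87 and 238 counts on it. The higher cdKO mean of the block thus rested on 1 library. Of 39 parts compared, which include 27 exon blocks, 0 had an exact permutation p under 0.05, the smallest being 0.0794 (adjusted over the 39 parts, 0.985). Of the 27 blocks, 20 were lower and 7 higher in cdKO samples, and with a pseudocount of 0.1 in place of 0.5 CPM, a count made after seeing the data, 24 were lower and 3 higher. Neighbouring parts share reads and are not independent, and blocks of other genes were not counted.

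Per length, Zfhx3 was the highest of the 9 genes. Dividing CPM by the kilobases of a gene's bins gave a mean level over the 10 samples of 0.687 ± 0.688 (SD) for Zfhx3, 0.265 ± 0.189 for Zfhx4, 0.230 ± 0.156 for Nfib, 0.156 ± 0.174 for Nfia, 0.154 ± 0.102 for Nfic, 0.112 ± 0.0783 for Zfhx2, 0.0220 ± 0.0396 for Neurod2, 0.0214 ± 0.0308 for Nfix and 0 for Neurod6. Zfhx3 was above Zfhx4 in 10 of 10 samples, and Zfhx2 above Neurod2 in 10 of 10. Other neighbours in this order changed places, Zfhx4 being above Nfib in 5 of 10 samples, Nfib above Nfia in 8, Nfia above Nfic in 6, Nfic above Zfhx2 in 6 and Neurod2 above Nfix in 4, and they did not differ beyond their spread. Leaving out cdKO replicate 5, an alternative chosen after seeing the data, the means were 0.569 ± 0.612 for Zfhx3, 0.221 ± 0.162 for Nfib, 0.219 ± 0.127 for Zfhx4, 0.126 ± 0.0566 for Nfic, 0.109 ± 0.0940 for Nfia and 0.0891 ± 0.0319 for Zfhx2 (SD, n = 9). Those of Neurod2 and Nfix fell most, to 0.0098 ± 0.0096 and 0.0122 ± 0.0104, by 2.25 and 1.76 times, and Nfix then stood above Neurod2, as Nfib did above Zfhx4 and Nfic above Nfia. All were low among expressed genes. Zfhx3 was above 29.1% of the genes tested, Zfhx4 above 16.1%, Nfib above 14.5% and Zfhx2 above 7.27%, against 84.1% for Olig2, which specifies MN progenitors, and 90.4% for Isl1, an MN determinant. Over the same control and cdKO samples, Onecut1 was above 35.4% and Onecut2 above 23.0%. These 2 ranks include the cdKO samples, in which both genes are targeted, and ranks over the control samples alone were not computed. Onecut1 averaged 5.84 ± 2.82 CPM over the control samples (SD, n = 5) and 2.71 ± 1.26 CPM over the cdKO samples (SD, n = 5).

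**Figure D4:**
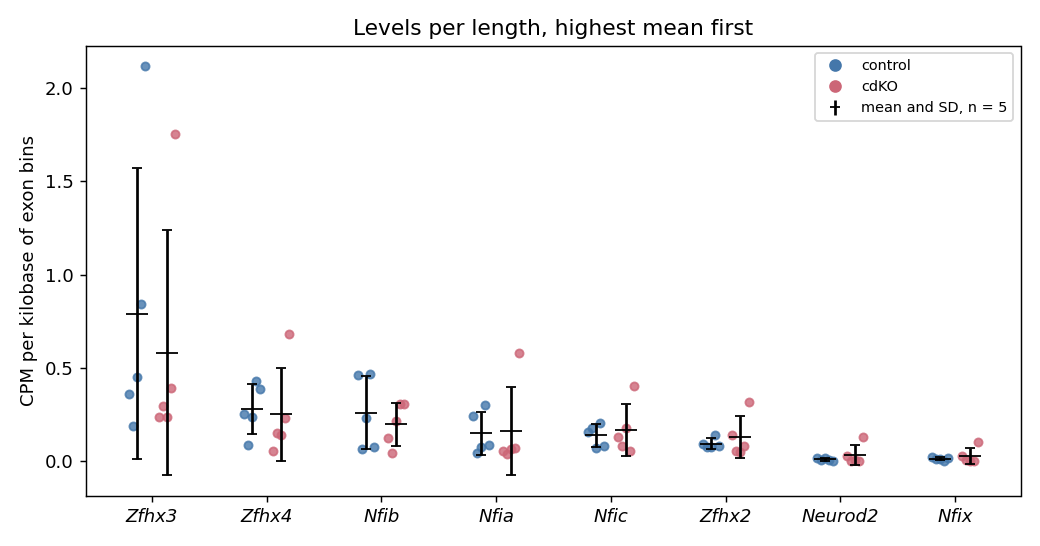
CPM per kilobase of exon bins of 8 genes, ordered by their mean over 10 samples, in 5 control (blue) and 5 cdKO (red) samples, with mean and SD (n = 5). Neurod6, at 0 throughout, is left out, and the Zfhx3 values of replicate 5 are the highest of each group.

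The order depended on which bins were used. On coding bins only, Nfib had 0.814 ± 0.613 CPM per kilobase and stood above Zfhx3 (0.763 ± 0.766) in 7 of 10 samples. Of the summed per-length level of the 3 Zfhx genes, Zfhx3 made up 60.9 ± 12.3% over the control samples (SD, n = 5) and 57.7 ± 3.64% over the cdKO samples (SD, n = 5). Of that of the 4 Nfi genes, Nfib made up 42.1 ± 15.8% and 40.3 ± 19.6%, Nfic 29.4 ± 17.6% and 33.3 ± 13.7%, Nfia 24.8 ± 7.74% and 22.5 ± 11.2%, and Nfix 3.66 ± 2.70% and 3.96 ± 3.93%. Between control and cdKO samples these shares differed by less than the SD of the control samples. With cdKO replicate 5 left out, the cdKO share of Nfia was 17.6 ± 3.40% and that of Zfhx3 56.2 ± 1.59% (SD, n = 4), and the differences stayed under the control SD.

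In Pearson's test over all 10 samples, Zfhx3, Zfhx4 and Nfib each had a relation with the neuron or progenitor score past an adjusted p of 0.05. Zfhx2, Nfia and Nfic had none. A progenitor score and a neuron score, the mean log2(CPM + 0.5) of 10 progenitor markers such as Sox2 and Notch1 and of 10 neuron markers such as Tubb3 and Elavl3, and 2 further scores were set against the 6 tested members over the 10 samples, 24 relations in all. Zfhx4 rose with the progenitor score (Pearson r = 0.92, permutation p = 1e-04, adjusted p = 0.0024, Spearman rho = 0.90, permutation p = 0.00088, adjusted p = 0.0106). With the 2 samples farthest from the median score left out, r was 0.82, and for deviations from the group means it was 0.92. Leaving out cdKO replicate 5, the sample with the highest score and the highest Zfhx4 level, r was 0.94 (exact permutation p = 0.00025, adjusted p = 0.0060, rho = 0.87, exact permutation p = 0.0045, adjusted p = 0.0541). Zfhx3 rose with the same score (r = 0.79, permutation p = 0.0077, adjusted p = 0.0464, rho = 0.90, permutation p = 0.00075, adjusted p = 0.0106, r = 0.79 without the 2 farthest samples, and 0.78 for deviations from the group means), but without cdKO replicate 5 its r of 0.75 did not pass (exact permutation p = 0.0156, adjusted p = 0.0934, rho = 0.92, exact permutation p = 0.0013, adjusted p = 0.0315). Nfib had its largest relation with the neuron score (r = 0.80, permutation p = 0.0049, adjusted p = 0.0390, rho = 0.72, permutation p = 0.0232, adjusted p = 0.0927, r = 0.67 without the 2 farthest samples, and 0.85 for deviations from the group means), and without cdKO replicate 5 its r of 0.80 did not pass either (exact permutation p = 0.0066, adjusted p = 0.0782, rho = 0.75, exact permutation p = 0.0255, adjusted p = 0.153). Whether the relations differ between genes was not tested. The adjustment covered the 24 relations only, and the share of all genes related as strongly to these scores was not counted. Whether the relations are particular to these genes is therefore not known. For Nfib, r with the progenitor score was 0.38 (permutation p = 0.278, rho = 0.47, permutation p = 0.179).

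The coverage shift passed an adjusted p of 0.05 in Pearson's test with Zfhx4 (r = 0.67, permutation p = 0.0033, adjusted p = 0.0390, rho = 0.75, permutation p = 0.0180, adjusted p = 0.0864, r = 0.75 without the 2 farthest samples). In the 9 samples without cdKO replicate 5 the r with Zfhx4 was 0.74 (exact permutation p = 0.0210, adjusted p = 0.101). With Zfhx3 its r was 0.65 (permutation p = 0.0215, adjusted p = 0.103, rho = 0.82, permutation p = 0.0060, adjusted p = 0.0483, r = 0.49 without the 2 farthest samples). Leaving out cdKO replicate 5 alone, the r with Zfhx3 was 0.83 (exact permutation p = 0.0098, adjusted p = 0.0782, rho = 0.77, exact permutation p = 0.0214, adjusted p = 0.153). The shift is largest in cdKO replicate 5, and the relations of 3 further genes rested on the 2 farthest samples, replicate 5 of each group. They were Zfhx2 (r = 0.79, permutation p = 0.0772, adjusted p = 0.192, rho = 0.21, permutation p = 0.561, r = -0.42 without the 2), Nfia (r = 0.73, permutation p = 0.0270, adjusted p = 0.108, rho = 0.68, permutation p = 0.0352, r = 0.36 without the 2) and Nfic (r = 0.66, permutation p = 0.0855, adjusted p = 0.192, rho = -0.09, permutation p = 0.810, r = -0.35 without the 2). For Nfib r was 0.23 (permutation p = 0.615, rho = 0.37, permutation p = 0.298). The part of coverage in the relations with the progenitor score was not tested. A score of lumbar Hox genes, low in control replicates 1 and 5 (-0.74 and -0.60 against 0.74 to 3.37 in the other samples), had no relation with any of the 6 genes past an adjusted p of 0.05. The plot of deviations by sample sets the genes above these scores.

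**Figure D5:**
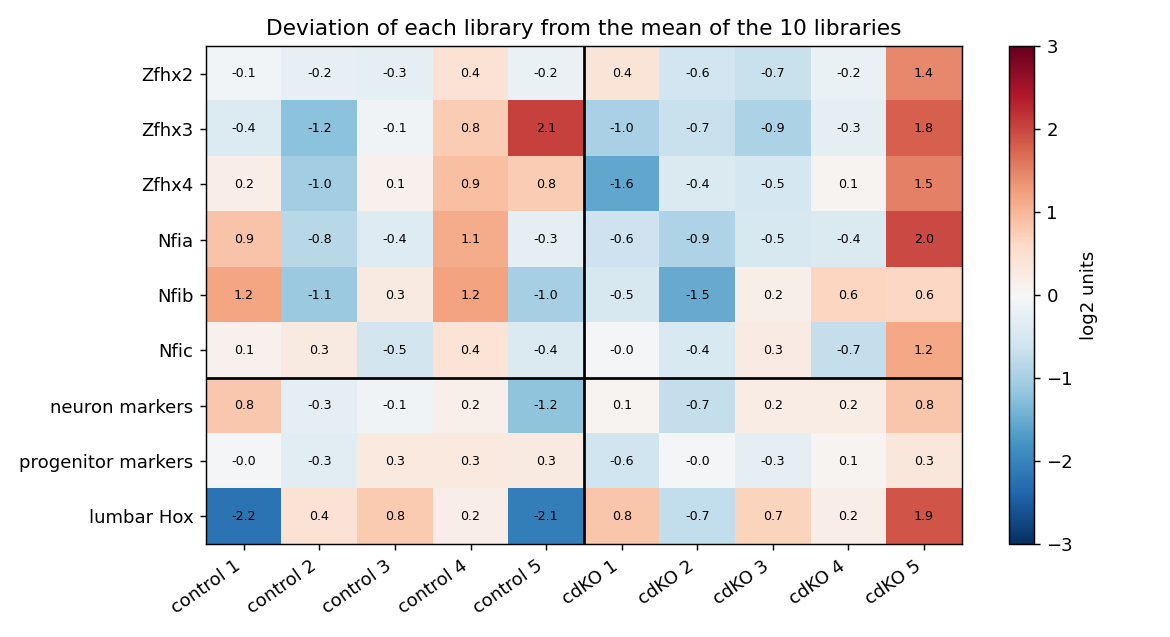
Deviation of each of 10 samples from their mean, in log2 units (red above, blue below), for log2(CPM + 0.5) of the 6 tested genes and for 3 marker scores. Zfhx3 is high in replicate 5 of both groups, Nfia and Nfib are high in control replicates 1 and 4, and the lumbar Hox score is low in control replicates 1 and 5. The highest Nfia sample is cdKO replicate 5.

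Markers of other cells were also present. All 8 erythroid markers were in the counts (6 passed the filter), with a summed level of 0.901 to 19.0 CPM in control and 2.84 to 66.3 in cdKO samples, the highest again in cdKO replicate 5. The 8 mesenchyme markers summed to 6.57 to 18.9 CPM in control and 9.98 to 21.8 in cdKO samples, and the 8 markers of sensory and crest cells to 41.2 to 76.2 and 27.9 to 73.8 CPM. Of the 6 macrophage markers, which summed to 3.14 to 5.26 and 3.30 to 6.93 CPM, Cx3cr1 was at or under 3 counts in every sample. The 6 endothelial markers summed to 1.01 to 3.55 and 1.90 to 3.08 CPM. Their part in the members' values was not tested.

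The genes whose levels over the 10 samples were most like those of the members were found among genes with a mean of at least 1 CPM, by Pearson r of log2(CPM + 0.5). They were Gm26906 (r = 0.98) and Crebbp (0.97) for Zfhx3, Slc24a5 and Wnk1 (0.97 each) for Zfhx4, Xpr1 (0.96) and Nkain3 (0.95) for Nfia, Dclk1 (0.96) and F730043M19Rik (0.95) for Nfib, Arhgef40 (0.93) and AU022252 (0.92) for Nfic, and Stard3nl (0.98) and Pbx4 (0.97) for Nfix. They are not particular to a gene, since r was over 0.9 for 358 genes with Nfix, 158 with Zfhx4, 132 with Zfhx3, 14 with Nfia, 10 with Nfib and 8 with Nfic, and Nfix did not pass the filter on low counts. In the 9 samples other than cdKO replicate 5, r stayed at 0.95 or above for the partners of Zfhx3, Zfhx4 and Nfib, and was 0.92 and 0.90 for those of Nfia, 0.84 and 0.83 for those of Nfic and 0.89 and 0.87 for those of Nfix. These are descriptions of 10 libraries that differ in depth and coverage, and cdKO replicate 5 was the highest sample for all of them except Gm26906, Dclk1 and F730043M19Rik. The partners of Nfib were highest in control replicates 1 and 4, where Nfib was also highest.

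Other genes of the same programmes were examined beside the members, with a median log2 fold change of -0.02 over all genes tested. Of 16 other temporal-code genes, all tested, 0 were higher and 2 lower at an unadjusted p under 0.05 by edgeR (Onecut1, log2 fold change -1.11, standard error 0.46, and Onecut3, -5.08), and the median was -0.29. The 0.813% of all genes lower at this threshold is the background of that count. However, Onecut1 is itself targeted, and the study states that inactivating Oc1 and Oc2 abolished Oc3 expression. The 2 lower genes thus follow from the cross and are no result about the later genes. No other gene of this list passed the threshold. Of 9 other neurogenic basic helix-loop-helix genes, 8 were tested, and 1 was higher and 0 lower, where 4.18% of all genes were higher. It was Bhlhe22, a factor of spinal interneurons, at 0.662, 0.508, 0.421, 0.461 and 0.990 CPM in control replicates 1 to 5 and 0.787, 0.999, 0.921, 1.35 and 1.87 CPM in cdKO replicates 1 to 5. The groups of Bhlhe22 overlapped through control replicate 5 (log2 fold change 0.96, standard error 0.42, edgeR unadjusted p = 0.0410, adjusted p = 0.938). For Bhlhe22 without cdKO replicate 5 the log2 fold change was 0.75 (standard error 0.35), past no threshold.

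Genes of the glial switch, in which Nfia and Nfib act, showed no difference past the same threshold. Of 16 genes 12 were tested, 0 were higher and 0 lower, and the median log2 fold change was -0.13. The smallest p belonged to Fabp7, a fatty acid binding protein of radial glia, with 72.5 to 496 CPM in control and 133 to 910 CPM in cdKO samples, the highest in cdKO replicate 5 (log2 fold change 0.89, standard error 0.57, edgeR unadjusted p = 0.143, and 0.26 without cdKO replicate 5). Sox9, which acts upstream of Nfia in glial specification, had a control mean of 133 ± 45.2 CPM (SD, n = 5) and a cdKO mean of 108 ± 12.2 CPM (SD, n = 5) (log2 fold change -0.31, standard error 0.28, edgeR unadjusted p = 0.284). Olig1, an oligodendrocyte lineage factor next to Olig2, had 8.95 ± 3.42 and 7.04 ± 1.60 CPM (log2 fold change -0.35, standard error 0.34, edgeR unadjusted p = 0.327). Sox10, Gfap, Cspg4 and Tnc, genes of mature or migrating glia, did not pass the filter on low counts.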

How the data were processed

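Sequenced RNA of 5 control and 5 cdKO samples, grouped by the genotype in the labels, was analysed. What the authors deposited were raw counts, 1 whole number for each exon bin and sample, and a read was counted on each bin it overlapped, without strand. The submitters' processing notes name bcl2fastq 2.17, Trimmomatic 0.36, STAR 2.5.2b, Subread 1.5.2, DESeq2 and the build GRCm38, and the annotation release was not given in the sources used here. Bins were matched to GENCODE M21 and summed per gene, and 3974 bins (1.17% of counts) that could not be given to 1 gene were left out. Bins of the 9 genes were not affected.

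Genes were filtered with filterByExpr (minimum count 10) and after TMM scaling were compared in edgeR 4.0.16 under R 4.3.3 (quasi-likelihood, Benjamini-Hochberg over all genes tested, threshold 0.05). Exact two-sided permutation tests used log2(CPM + 0.5) over all 252 arrangements of the samples, and correlations used 100000 permuted pairings. Alternatives used DESeq2 1.42.0 and limma 3.58.1, other scalings and filters, other sets of bins, the replicate block and each sample left out. No 2 samples of a group were duplicates. The genes named are the 9 members, the Onecut genes, genes of the wider lists at an unadjusted p under 0.05 or else the 3 with the smallest p, the 2 genes most like a member, and markers. The members and lists were chosen by role, but with earlier results of these data known.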

Additional observations from a re-analysis of the deposited data

Results flagged for a closer look

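In groups of 5 samples, the highest or lowest sample was compared with the others by its gap over the range (Dixon's 95% critical value, 0.71). A rate of 1 in 20, about 1.3 of 26 groups, would hold for independent and normally distributed values. These values are not independent, CPM near 0 are not normally distributed, and Neurod6, at 0 in every sample, could not be flagged. That rate is therefore no measure of chance here. Of the 26 groups looked at, 7 were past the critical value. In cdKO replicate 5 these were Zfhx3 at 30.8 CPM (4.14 to 6.89 in the other 4 cdKO samples), Zfhx4 at 10.7 (0.825 to 3.61), Nfia at 6.34 (0.404 to 0.787), Nfix at 0.768 (0 to 0.216), Neurod2 at 0.414 (0 to 0.0889) and the coverage shift itself at 0.0834 (-0.0165 to -0.0088). All 6 came from 1 library and are not independent of each other. In control replicate 4, Zfhx2 was at 2.60 CPM, against 1.36 to 1.68 in the other 4 control samples.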

How the results depend on the processing

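Over 24 alternatives the 6 tested genes had 144 log2 fold changes, of which 22 changed sign (Nfia 10, Nfic 5, Zfhx2 3, Zfhx4 3, Zfhx3 1 and Nfib 0), and the cause was not tested. With limma-voom and sample quality weights, Zfhx2 was -0.39, Nfia -0.92 and Nfic -0.00039, and with limma-voom alone Nfia was -0.43 and Nfic -0.027. With library size only, Nfia was -0.32 and Nfic -0.018. On the highest bin of each gene Zfhx4 was 0.51, and outside the last exon block Nfia was -0.46. Without both libraries of replicate 5, Zfhx2 was -0.25, Nfia -1.50 and Nfic -0.48. When samples were left out 1 at a time, the fold change on the log2 scale ran from -0.19 to 0.63 for Zfhx2, -1.42 to 0.33 for Zfhx3, -0.95 to 0.10 for Zfhx4, -1.35 to 0.51 for Nfia, -0.66 to -0.09 for Nfib and -0.33 to 0.46 for Nfic. Genes called at an adjusted p under 0.05 numbered 0 to 4 with 1 sample left out, 1 with library size only, 1 with no filter, 1 outside the last exon block, 3 with limma-voom, 13 with sample quality weights, 20 with DESeq2 and 4 without both libraries of replicate 5. Members past an unadjusted p of 0.05 numbered 0 to 2 with 1 sample left out and 1 without both libraries of replicate 5, and 0 in the other alternatives. Without cdKO replicate 5, Pearson's r lost its adjusted p under 0.05 for Zfhx3 with the progenitor score (0.75), Nfib with the neuron score (0.80) and Zfhx4 with the coverage shift (0.74), and kept it for Zfhx4 with the progenitor score (0.94).

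Control and cdKO samples share replicate numbers 1 to 5, but same-numbered samples did not all deviate together (correlations from -0.32 to 0.43, 3 of 5 over 0.1, and 2 of 5 control samples correlating best with their own number). With a replicate block, 0 genes were called, 462 had an unadjusted p under 0.05 against 890 without it, and Nfia had a log2 fold change of -0.47. Levels near 3 counts limit Nfix, Neurod2 and Neurod6.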
